A study of Mus musculus with 19 samples.

Results

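The 10 genes described here are core components of the circadian clock and of its output: *Arntl*, *Clock*, *Npas2*, *Per1*, *Per2*, *Per3*, *Cry1*, *Nr1d1*, *Nr1d2* and *Dbp*. They were chosen by symbol from the 55740 genes of 3 expression tables, from a list drawn up with earlier results of these data known. All 10 were listed in the table of 7 tissues and in that of brown adipose tissue (BAT), and 9 in that of inguinal white adipose tissue (iWAT). *Npas2* in iWAT was not analysed here. Cold-exposed tissue came from male mice 5 months of age on a chow diet, kept at 8 °C for 1 week, either MCK-Musclin or wildtype (WT) controls, with 3 libraries for each genotype in each of iWAT and BAT. MCK-Musclin mice carry the coding sequence of Musclin (gene symbol *Ostn*), a peptide secreted by muscle, behind a creatine kinase promoter that acts in skeletal muscle, and were backcrossed to C57BL/6J. The source of *Ostn* reads in the adipose libraries was not tested. The other table held 1 library each of brain, heart, small intestine, liver, white and brown adipose tissue and tibialis anterior (TA) muscle from C57BL/6J WT mice on chow. The time of day at which tissues were taken is not given in the sources used here, and neither is whether iWAT and BAT libraries with the same number came from the same mouse. No table set a fat depot in the cold beside the same depot out of it, so an effect of cold itself was not tested.

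The mammalian clock is a feedback loop of transcription that runs in nearly every cell with a period of about a day. The proteins of *Arntl* (BMAL1) and *Clock*, or its relative *Npas2*, pair up, bind E-boxes and switch on the *Per* and *Cry* genes, whose products then repress that pair. The REV-ERB receptors encoded by *Nr1d1* and *Nr1d2* repress *Arntl* in a further loop against the activating ROR receptors, and *Dbp* encodes a factor that binds D-boxes and carries the rhythm to output genes. *Arntl* transcript therefore normally peaks at about the opposite time of day to *Nr1d1* and *Dbp*. In adipose tissue the clock is known to time lipid storage, lipolysis and heat production.

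The values were FPKM, fragment numbers made relative both to gene length and to library size, so levels can be compared between genes. The FPKM of a library summed to 364710 to 384104 in iWAT, 676362 to 720852 in BAT and 393682 to 711437 in the 7 tissues. The 10 most abundant genes held 11.9% to 13.0% of that sum in iWAT and 48.4% to 51.3% in BAT, so levels in iWAT and BAT, whose tables were also made separately, were set side by side and not tested. Read totals are not known, but steps between low values gave depths within 0.890 to 1.11 of the first WT library in BAT. In BAT the WT libraries list *Ostn* at 0, and it had an FPKM of 37.9, 31.6 and 30.3 in the MCK-Musclin libraries, in keeping with their labels. In iWAT it was at 0, 0 and 0.225 in WT and at 0, 5.17 and 4.21 in MCK-Musclin and, the promoter being one of muscle, iWAT does not check the labels. For *Nr1d1*, *Nr1d2* and *Dbp* the MCK-Musclin libraries numbered 3 were the lowest of their group in both tissues. Several results that rest on them are given with and without them. Ranks of correlation among all genes, and correlations within 1 tissue, are given only with them. All 7 tissue labels matched the tissue with the highest summed FPKM of their marker genes. In such bulk libraries fewer cells of a type and less RNA per cell cannot be told apart.

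Promoter windows of 300 bases, from 250 before to 50 after the transcription start, were taken from RefSeq (GRCm38.p6) for 9 of the 10 genes, 13 windows in all. They were searched on both strands for the E-box CACGTG, for the D-box TTANGTAA and for the core of the ROR element, TAGGTCA or TGGGTCA, to which REV-ERB receptors also bind. Those 4 that held a match are shown because they hold the letters of the elements through which the loops of the clock are known to act, with the match in capitals and bases counted from the start as 0. They are *Arntl* (chr7:113207261-113207560, plus strand, ROR element core at bases 30 to 36 from the start), *Per1* (chr11:69098699-69098998, plus strand, E-box at -166 to -161), *Per3* (chr4:151044616-151044915, minus strand, D-boxes at -205 to -198 and -158 to -151) and *Cry1* (chr10:85185005-85185304, minus strand, E-box at -60 to -55).
Arntl: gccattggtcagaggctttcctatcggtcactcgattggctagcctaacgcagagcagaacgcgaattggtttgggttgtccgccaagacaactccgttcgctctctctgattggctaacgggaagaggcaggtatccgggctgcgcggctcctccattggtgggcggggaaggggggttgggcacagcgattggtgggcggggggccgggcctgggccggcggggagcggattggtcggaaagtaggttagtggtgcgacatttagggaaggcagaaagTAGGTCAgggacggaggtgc
Per1: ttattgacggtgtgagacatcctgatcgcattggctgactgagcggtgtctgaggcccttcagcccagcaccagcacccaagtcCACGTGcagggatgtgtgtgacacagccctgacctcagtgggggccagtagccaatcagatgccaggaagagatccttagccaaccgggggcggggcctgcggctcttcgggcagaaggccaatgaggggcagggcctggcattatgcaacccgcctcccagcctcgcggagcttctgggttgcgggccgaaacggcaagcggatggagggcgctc
Per3: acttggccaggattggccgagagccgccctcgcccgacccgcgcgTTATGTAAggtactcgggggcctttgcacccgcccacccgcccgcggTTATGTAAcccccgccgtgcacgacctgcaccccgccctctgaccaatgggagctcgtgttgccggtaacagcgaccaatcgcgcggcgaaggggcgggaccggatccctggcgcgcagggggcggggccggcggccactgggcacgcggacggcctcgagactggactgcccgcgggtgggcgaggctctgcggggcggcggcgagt
Cry1: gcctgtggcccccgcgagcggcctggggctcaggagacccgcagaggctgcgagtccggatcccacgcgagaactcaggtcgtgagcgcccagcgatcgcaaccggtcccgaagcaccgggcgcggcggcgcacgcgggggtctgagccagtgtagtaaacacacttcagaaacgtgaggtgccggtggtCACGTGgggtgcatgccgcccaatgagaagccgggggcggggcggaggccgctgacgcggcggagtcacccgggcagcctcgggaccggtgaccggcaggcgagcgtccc
Of all 32851 windows of this length, 7.15% held the E-box, 2.32% the D-box and 6.45% the ROR element core. A match describes the letters of a window and is not a site of binding, and these motifs fell outside the other windows searched.

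The genotypes were compared in each tissue on log2(FPKM + 1) with limma for every gene whose FPKM averaged 1 or more, and adjustment of p by the Benjamini-Hochberg method over all genes of the table. In iWAT *Arntl* was the gene with the clearest difference upwards among the clock genes and *Clock*, its partner, the one with the clearest difference downwards, but neither passed the adjusted threshold. *Arntl* had an FPKM of 1.62, 1.10 and 1.53 in WT and of 2.57, 2.09 and 2.66 in MCK-Musclin. Every MCK-Musclin library was above every WT library. The means were 1.42 ± 0.281 and 2.44 ± 0.306 (SD, n = 3), a ratio of 1.72, and the log2 difference was 0.51 (SE 0.14, 95% interval 0.18 to 0.84, limma, Benjamini-Hochberg adjusted p = 0.171). *Clock* had an FPKM of 9.48, 9.64 and 11.3 in WT and of 8.05, 5.80 and 8.47 in MCK-Musclin. Here every MCK-Musclin library was below every WT library. The means were 10.1 ± 0.989 and 7.44 ± 1.44 (SD, n = 3), a ratio of 0.734, and the log2 difference was -0.41 (SE 0.15, 95% interval -0.76 to -0.06, limma, Benjamini-Hochberg adjusted p = 0.250). Without a model, the exact two-sided permutation test gave p = 0.1 for both genes, the smallest that 3 libraries against 3 allow. *Arntl* and *Clock* therefore stood on opposite sides in iWAT although their products form 1 complex. Annotated exons of *Arntl* overlap those of the antisense gene *Gm45355*, and the alignment without strand cannot tell their reads apart, while *Clock* has no such overlap. *Gm45355* had an FPKM of 0.142 in WT library 1 of BAT and was listed at 0 in the other BAT libraries and the 7 tissues. It was not analysed in iWAT, and its part in the *Arntl* values was not tested.

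Among the repressors of the loop no genotype difference stood clear of the spread in iWAT. *Per1* had an FPKM of 7.80, 14.5 and 14.8 in WT and of 10.5, 9.08 and 10.4 in MCK-Musclin. *Per2* had 10.6, 12.8 and 16.9 in WT and 9.98, 11.4 and 10.5 in MCK-Musclin. For both period genes the first WT library was the lowest of its group and the groups overlapped, with log2 differences of -0.24 (SE 0.23, 95% interval -0.77 to 0.29) and -0.29 (SE 0.16, 95% interval -0.67 to 0.10). Without that library the difference of *Per1* was -0.52 and reached the cutoff of the study described below. Of all 12216 genes in that fit, 213 lower and 844 higher reached it. *Per2*, at -0.44, then had an unadjusted p under 0.05 in limma, as did 493 genes on the lower side. *Per3* (13.0, 15.2 and 16.1 in WT, 13.6, 17.5 and 13.7 in MCK-Musclin) and *Cry1* (5.05, 4.42 and 5.81 in WT, 4.93, 4.68 and 5.10 in MCK-Musclin) lay closest to equal, with log2 differences of 0.01 (95% interval -0.30 to 0.32) and -0.04 (95% interval -0.32 to 0.24). These intervals leave room for differences of up to about 0.3 in either direction.

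The REV-ERB genes and *Dbp* varied together within each genotype of iWAT. *Nr1d1* had an FPKM of 21.5, 31.2 and 14.8 in WT and of 28.8, 42.3 and 11.7 in MCK-Musclin, its paralog *Nr1d2* had 19.0, 23.3 and 15.8 in WT and 17.1, 19.5 and 12.8 in MCK-Musclin, and *Dbp* had 86.7, 89.4 and 62.3 in WT and 81.3, 102 and 40.5 in MCK-Musclin. In both genotypes library 2 was the highest and library 3 the lowest for all 3 genes, and the groups overlapped. *Dbp* was the most abundant of the clock genes in all 6 libraries. The log2 differences were 0.17 (SE 0.45, 95% interval -0.89 to 1.23) for *Nr1d1*, -0.23 (SE 0.19, 95% interval -0.67 to 0.21) for *Nr1d2* and -0.17 (SE 0.33, 95% interval -0.94 to 0.60) for *Dbp*, all with larger errors than that of *Arntl*. Without MCK-Musclin library 3 the difference of *Dbp* was 0.21 and that of *Nr1d1* 0.67, and with MCK-Musclin library 2 or WT library 3 left out that of *Nr1d1* was -0.21 or -0.09, so 1 library set their direction. Annotated exons of *Nr1d1* overlap those of *Thra*, and those of *Dbp* overlap those of *Sphk2*, on the other strand.

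**Figure D1:**
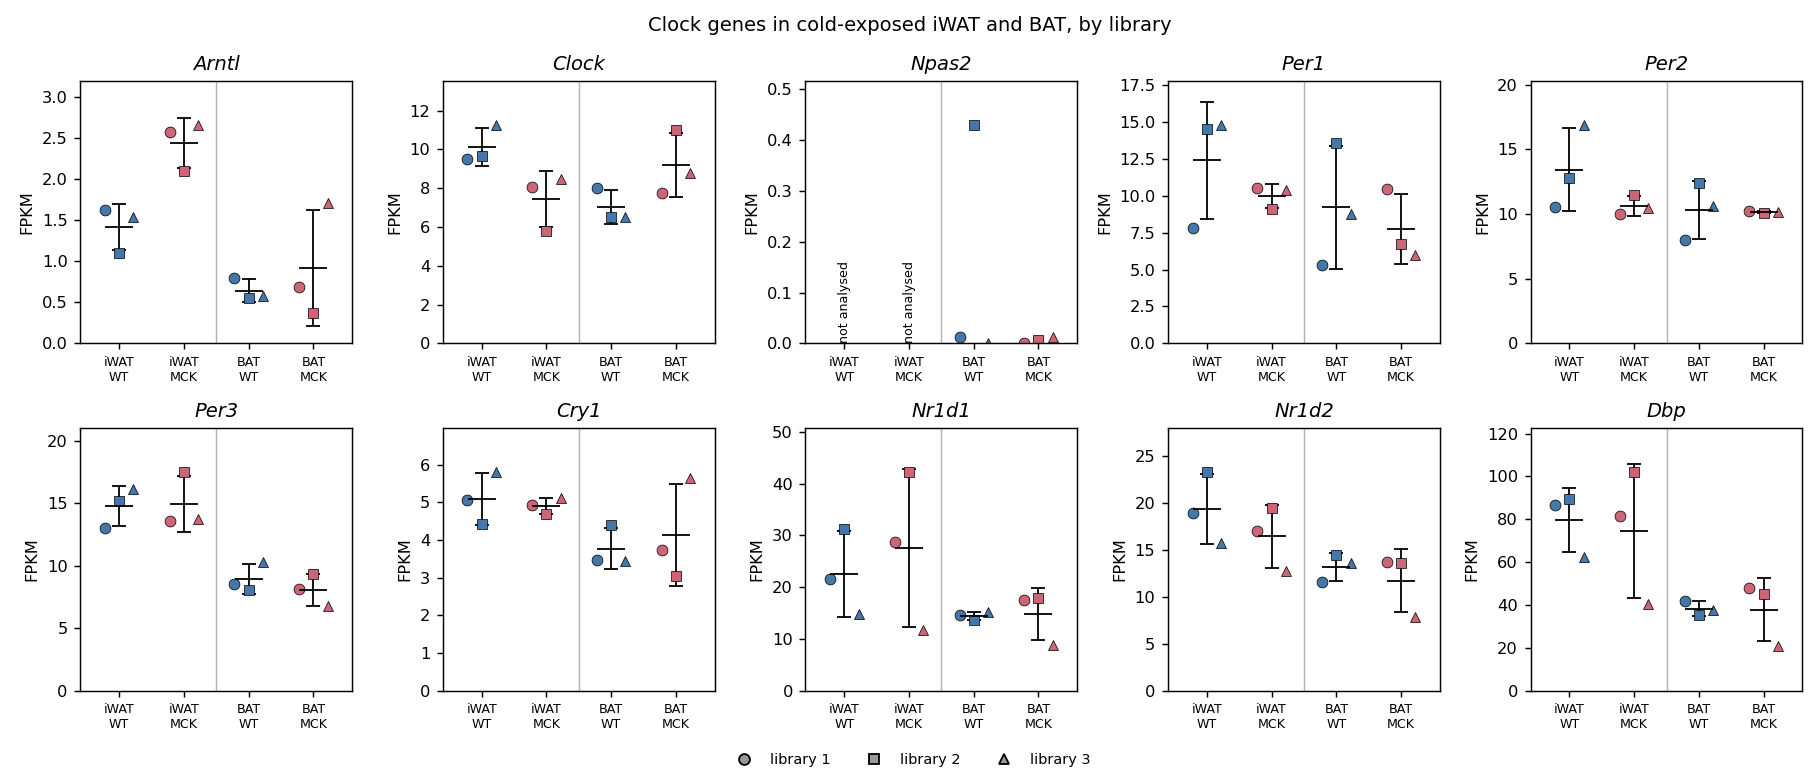
FPKM (vertical axis, linear from 0) of the 10 clock genes in each cold-exposed library of iWAT and BAT (horizontal axis), WT in blue and MCK-Musclin (MCK) in red, with the library number given by the symbol and the mean ± SD of 3 libraries in black (none drawn for *Npas2*). In iWAT the groups are apart for *Arntl*, with MCK-Musclin at 2.09 to 2.66 against 1.10 to 1.62, and for *Clock*, and all other pairs of groups overlap.

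Of the 9 clock genes tested in iWAT 3 were higher and 6 lower in MCK-Musclin, with a median log2 difference of -0.17 against 0.06 over all genes tested. No clock gene had an adjusted p under 0.05 in limma, as none of the 12197 genes did (0%). At an unadjusted p under 0.05, *Arntl* was higher, as were 13.1% of all genes, and *Clock* was lower, as were 3.44%. The cutoff used in the study for iWAT was an unadjusted p under 0.05 with a log2 difference beyond 0.5 on either side. The study set its cutoffs, in iWAT and in BAT, on fold changes from DESeq2. Here they were set on differences of log2(FPKM + 1), which come out smaller for genes of low FPKM such as *Arntl*. In iWAT the cutoff was met by *Arntl* alone, against 5.04% of all genes higher and 0.902% lower. Separate groups were seen for 17.9% of all genes with MCK-Musclin above and for 5.44% with MCK-Musclin below, so *Arntl* stood among many genes of its direction and *Clock* among fewer. The split of 615 genes higher and 110 lower at that cutoff was 1856 and 44 with values centred on adipocyte markers, 426 and 187 with median-ratio scaling and 605 and 201 in TPM. Centring, which adds the same amount to every gene, raised the median of all genes from 0.06 to 0.26. The difference of *Clock* was then -0.21 and its unadjusted p was 0.387 in limma, so its call was lost, while *Arntl* stood at 0.71. *Cry1* and *Dbp* changed sign under that centring, and *Per3* did under TPM and median-ratio scaling. On log2(FPKM + 1) *Arntl* no longer reached a difference of 0.5 when WT library 2 (0.41) was left out, or either of the libraries 1 (0.48) and 3 (0.47) of MCK-Musclin. These fits were not run with a smaller pseudocount, on which the difference of so low a gene depends. The unadjusted p of *Clock* was 0.0919 in limma with WT library 3 left out and 0.0737 with MCK-Musclin library 2 left out. Marker lists of other cells also moved with genotype in iWAT. Of the summed FPKM, that of 4 B cell markers was 109 to 211 in WT and 239 to 326 in MCK-Musclin, that of 4 T cell markers 66.2 to 108 and 131 to 170, and that of 4 lymph node stroma markers 26.6 to 30.7 and 47.7 to 56.9, with all MCK-Musclin libraries above all WT libraries for 4, 3 and 4 of the genes. The 6 brown and beige fat markers summed to 516 to 993 in WT and 87.5 to 575 in MCK-Musclin, and the 6 fast skeletal muscle markers to 7.30 to 2202 in WT and 5.54 to 89.7 in MCK-Musclin. The median log2 difference of the muscle markers was -2.34, with groups that overlapped for all 6. No marker of these lists was at 0 in every library of a group. The part of these lists in the differences of clock genes was not tested.

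In BAT no clock gene was apart between genotypes. *Clock* had an FPKM of 8.02, 6.54 and 6.50 in WT and of 7.75, 11.01 and 8.80 in MCK-Musclin, so that its groups overlapped through 1 library on each side. Its means were 7.02 ± 0.871 and 9.19 ± 1.67 (SD, n = 3), and its log2 difference was 0.34 (SE 0.15, 95% interval -0.01 to 0.69, limma, Benjamini-Hochberg adjusted p = 0.968), opposite in sign to that in iWAT. *Arntl* was low in BAT, at 0.799, 0.549 and 0.574 in WT and at 0.681, 0.369 and 1.71 in MCK-Musclin. The highest and the lowest of the 6 values of *Arntl* both came from MCK-Musclin libraries, and its mean of 0.781 was under the filter, so it was not tested. *Npas2* was at 0.0118, 0.430 and 0 in WT and at 0, 0.00626 and 0.0122 in MCK-Musclin, near the bottom of the table in all but 1 library, and was not tested either.

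*Per1* varied most among the repressors in BAT, at 5.30, 13.6 and 8.78 in WT and at 10.4, 6.72 and 6.01 in MCK-Musclin. *Per2* had 7.98, 12.4 and 10.6 in WT against 10.2, 10.1 and 10.2 in MCK-Musclin, a tight group inside the range of the other, with SDs of 2.21 and 0.0939. *Per3* was at 8.53, 8.05 and 10.3 in WT and 8.10, 9.35 and 6.78 in MCK-Musclin, and *Cry1* at 3.47, 4.39 and 3.44 in WT and 3.72, 3.05 and 5.66 in MCK-Musclin. All of these groups overlapped. *Nr1d1* was at 14.5, 13.6 and 15.1 in WT and 17.4, 18.0 and 8.89 in MCK-Musclin, *Nr1d2* at 11.6, 14.4 and 13.6 in WT and 13.7, 13.7 and 7.83 in MCK-Musclin, and *Dbp* at 42.0, 35.1 and 37.5 in WT and 47.6, 44.9 and 20.9 in MCK-Musclin. For *Nr1d1* and *Dbp* MCK-Musclin libraries 1 and 2 were above all WT libraries and MCK-Musclin library 3 was below all of them, so that means of 38.2 ± 3.48 and 37.8 ± 14.7 (SD, n = 3) of *Dbp* hid values on both sides. Without that library the log2 differences of *Dbp*, *Nr1d1* and *Nr1d2* were 0.27, 0.28 and 0.05, in place of -0.10, -0.03 and -0.19. *Dbp* and *Nr1d1* then had an unadjusted p under 0.05 in limma, as did 289 of 10902 genes on the higher side. With MCK-Musclin library 3 kept, *Per1*, *Per2*, *Per3* and *Cry1* had log2 differences of -0.18, -0.0011, -0.14 and 0.08.

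Of the 8 clock genes tested in BAT 2 were higher and 6 lower in MCK-Musclin, with a median of -0.06 against -0.01 over all genes. The number past an adjusted p of 0.05 in limma was 0, against 0.00918% of all 10893 genes, which is *Ostn* alone. At an unadjusted p under 0.05 it was also 0, against 2.18% of genes higher and 2.71% lower, as it was at the study's cutoff for BAT, a log2 difference beyond 0.3 (1.85% higher and 2.15% lower). Separate groups were likewise seen in none of the 8, against 4.38% of all genes with MCK-Musclin above and 5.63% below. *Clock* met that cutoff after rescaling to TPM or centring on adipocyte markers, and when library 1 of either genotype was left out. Of all genes 239 higher and 189 lower met it in TPM. Without WT library 1 these were 187 and 253, and without MCK-Musclin library 1 they were 167 and 240. Centring moved the median of all genes from -0.01 to 0.16 and the split of genes higher and lower at the cutoff from 202 and 234 to 493 and 42, and under it *Per2*, *Per3*, *Nr1d1* and *Dbp* were positive. B cell and T cell markers summed to no more than 0.900 and 1.74 FPKM in any BAT library, while 6 fast muscle markers summed to 258 to 409 in WT and 420 to 905 in MCK-Musclin, and their part was not tested.

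**Figure D2:**
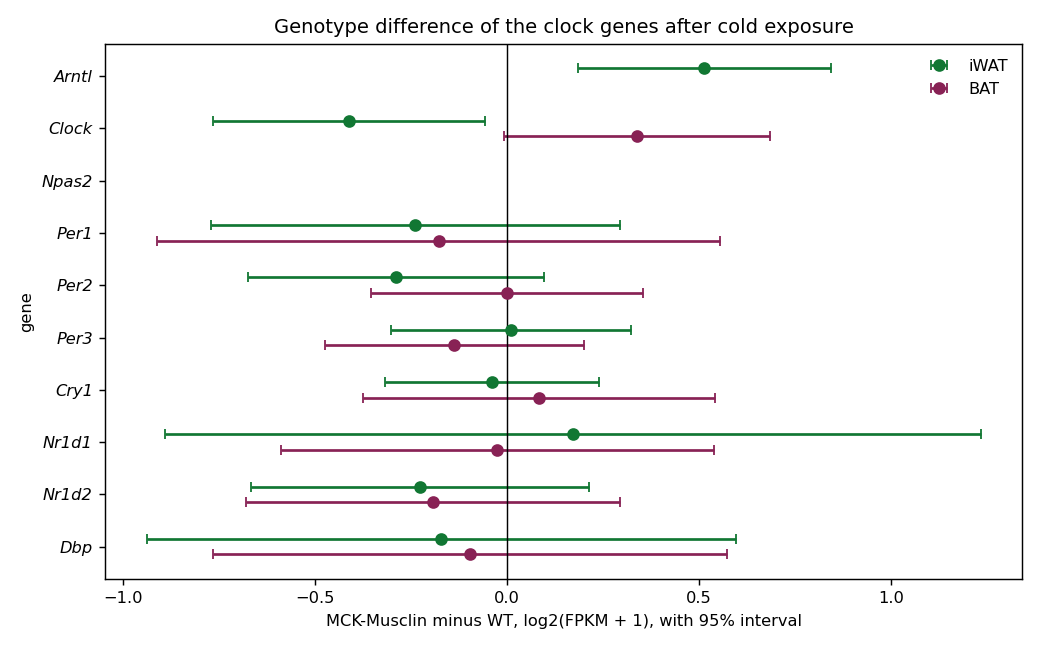
Log2 difference of FPKM + 1, MCK-Musclin minus WT (horizontal axis), of each clock gene (vertical axis) in iWAT (green) and BAT (purple), as limma estimates with 95% intervals from 3 libraries a genotype. The intervals of *Arntl* and *Clock* in iWAT lie to either side of 0 and all others include it, *Clock* in BAT by the least (-0.01 to 0.69).

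The difference between the genotype effects of iWAT and BAT was tested in 1 limma model over the 12 cold-exposed libraries, each effect taken within its own table, for the 9757 genes that averaged an FPKM of 1 or more in each table. *Clock* differed most of the 8 clock genes tested, by -0.75 (SE 0.22, 95% interval -1.23 to -0.27), being lower with Musclin in iWAT and higher in BAT, but with an adjusted p of 0.402 in limma it did not pass. No gene passed at an adjusted p under 0.05 (0%), and *Clock* was the only clock gene with an unadjusted p under 0.05, on the side where 3.02% of all genes lay, with 7.04% on the other side. That split of 687 genes above and 295 below 0 was 386 and 487 in TPM and 401 and 555 with median-ratio scaling. For *Clock* the difference kept its sign and an unadjusted p under 0.05 in all 12 fits that left out 1 library, from -0.85 to -0.60. The other 7 clock genes had values from -0.29 for *Per2* to 0.20 for *Nr1d1*, with unadjusted p from 0.245 up, and intervals as wide as -1.05 to 1.45.

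Libraries of the same genotype and tissue differed widely for several clock genes, and those genes varied together. As a description, deviations from the group means on log2(FPKM + 1) were correlated over the 12 cold-exposed libraries, which are 4 groups of 3 with values from 2 tables. *Nr1d1* followed *Dbp* closely, with Pearson's r of 0.94 and Spearman's rho of 0.92, and r of 0.97 in the 6 iWAT and 0.98 in the 6 BAT libraries. Of 9756 other genes only 2 were closer to *Dbp*. *Nr1d2* was also close to *Dbp*, with r = 0.87 and rho = 0.83. The low MCK-Musclin libraries numbered 3 weighed on these values, and without both of them r was 0.90 for *Nr1d1* and 0.71 for *Nr1d2*. These libraries were chosen for leaving out after their values were seen, and they are also the 2 farthest from the median of *Dbp*.

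*Arntl* ran against this group. Its r with *Nr1d2* was -0.86 (rho -0.90), with *Dbp* -0.68 (rho -0.66) and with *Nr1d1* -0.64 (rho -0.78), while that with *Cry1* was 0.83 (rho 0.64) and that with *Clock* 0.03 (rho 0.26). Counted from the most opposed of 9757 genes, *Nr1d2* ranked 34, *Dbp* 359 and *Nr1d1* 511, and *Cry1* ranked 33 from the highest. In BAT *Arntl* was under the filter for testing, and its largest deviation, 0.560, came from MCK-Musclin library 3 there. The value for *Clock* joined 0.64 in iWAT with -0.24 in BAT. Leaving out both MCK-Musclin libraries numbered 3, r was -0.78 with *Nr1d2*, -0.45 with *Dbp*, -0.57 with *Nr1d1* and 0.65 with *Cry1*, and leaving out the 2 libraries farthest from the median of *Arntl* it was 0.37 with *Cry1* and 0.76 with *Clock*. MCK-Musclin library 3 had both the highest *Arntl* and the lowest *Dbp*, *Nr1d1* and *Nr1d2* of its group, in iWAT and again in BAT. The deviations of *Dbp* in that library were -0.768 in iWAT and -0.739 in BAT, and those of *Nr1d1* were -0.998 and -0.612. Its depth in BAT was 1.02 of the first WT library, inside the range of the others. *Per1* and *Per2* did not follow *Dbp* (r of -0.02 and -0.22), and *Per3* had r = 0.49, or 0.20 without both MCK-Musclin libraries numbered 3. Of the genes that share exons with members, *Sphk2* had r = -0.10 with *Dbp*, and *Thra* had r = 0.11 with *Nr1d1*.

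**Figure D3:**
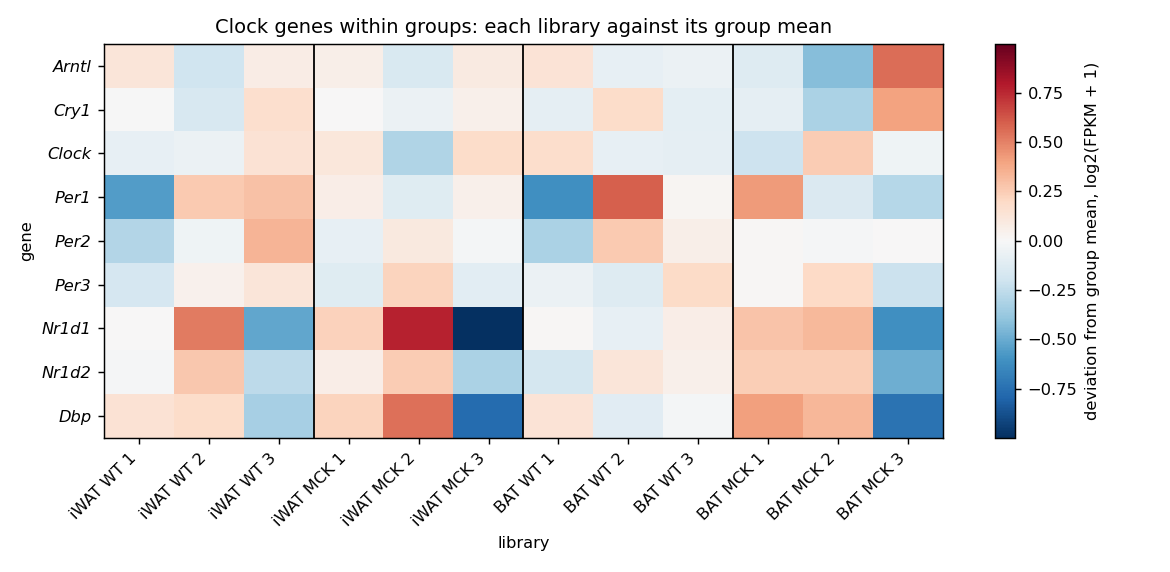
Deviation of each cold-exposed library (horizontal axis, WT and MCK-Musclin, MCK, of iWAT and BAT, numbered) from the mean of its own group on log2(FPKM + 1) for 9 clock genes (vertical axis), red above and blue below the mean. *Nr1d1*, *Nr1d2* and *Dbp* share their colours across most libraries, and both libraries MCK 3 are blue for these 3 and red for *Arntl* and *Cry1*.

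The genes most like *Dbp* by this measure were *Fto*, *4931440P22Rik*, *Nr1d1*, *Dis3l* and *Gosr2*, with r from 0.94 to 0.95, and those most opposed to it were *Ninl*, *Nelfa*, *Card19*, *Ramp2* and *Gtf2ird1*, with r from -0.93 to -0.88. For *Arntl* they were *Wdr44* (r = 0.96), *Iqcc*, *Ccar1*, *Hnrnpll* and *Trappc13* (r = 0.89) at the upper end and *Smad4* (r = -0.94), *Slc20a1*, *Phka2*, *Erlin2* and *Sntb1* (r = -0.91) at the lower end, of 9757 genes. *Nr1d1* was thus the only clock gene in either list. These lists were drawn with all 12 libraries. Without both MCK-Musclin libraries numbered 3, r of the upper genes with *Dbp* was 0.83 (*Fto*) to 0.90 (*Nr1d1*). That of the upper genes with *Arntl* was 0.75 (*Trappc13*) to 0.91 (*Hnrnpll*), so the order within the lists was not kept. No p was computed for any of these values.

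Across the 7 WT tissues, with 1 library each and hence no replicate check, the activators and the other clock genes differed in where they were highest. *Arntl*, *Clock* and *Npas2* were highest in brain, at an FPKM of 10.2, 12.2 and 14.7. *Npas2* was most confined, with 72.9% of its summed FPKM in brain, 4.59 in intestine, 0.365 in heart, 0.363 in TA muscle, 0.141 in white adipose and a listed 0 in liver and brown adipose. *Arntl* followed brain with 3.39 in intestine, 2.17 in white adipose, 1.08 in TA muscle, 0.690 in liver, 0.438 in heart and 0.238 in brown adipose, a 42.9-fold range. *Clock* had 9.19 in intestine, 8.25 in white adipose, 5.61 in brown adipose, 4.19 in liver, 3.81 in heart and 1.10 in TA muscle. White adipose was thus the third tissue for both, while brown adipose was last for *Arntl*.

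Another 5 genes were highest in white adipose. *Dbp* had an FPKM of 78.7 there, then 53.1 in brown adipose, 47.5 in TA muscle, 46.8 in brain, 44.6 in heart, 33.8 in liver and 25.8 in intestine. *Nr1d1* had 70.0 in white adipose, 36.2 in brown adipose, 34.7 in brain, 24.9 in intestine, 18.5 in TA muscle, 18.0 in heart and 9.03 in liver. Both fat tissues led for these genes, and for *Per3* too, at 32.4 in white and 22.2 in brown adipose against 9.85 in heart, 8.62 in brain, 6.97 in intestine, 6.90 in liver and 5.54 in TA muscle. *Per1* was at 22.8 in white adipose, 19.5 in brain, 17.8 in brown adipose, 11.8 in intestine, 11.6 in heart, 10.8 in TA muscle and 8.88 in liver. *Nr1d2* was the most even, from 23.3 in white adipose to 15.5 in intestine. Of the remaining genes *Per2* was highest in intestine (22.4), followed by white adipose (20.6), brown adipose (18.8), liver (17.8), brain (13.2), heart (8.99) and TA muscle (3.65), and *Cry1* ranged from 6.41 in intestine to 2.64 in heart.

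**Figure D4:**
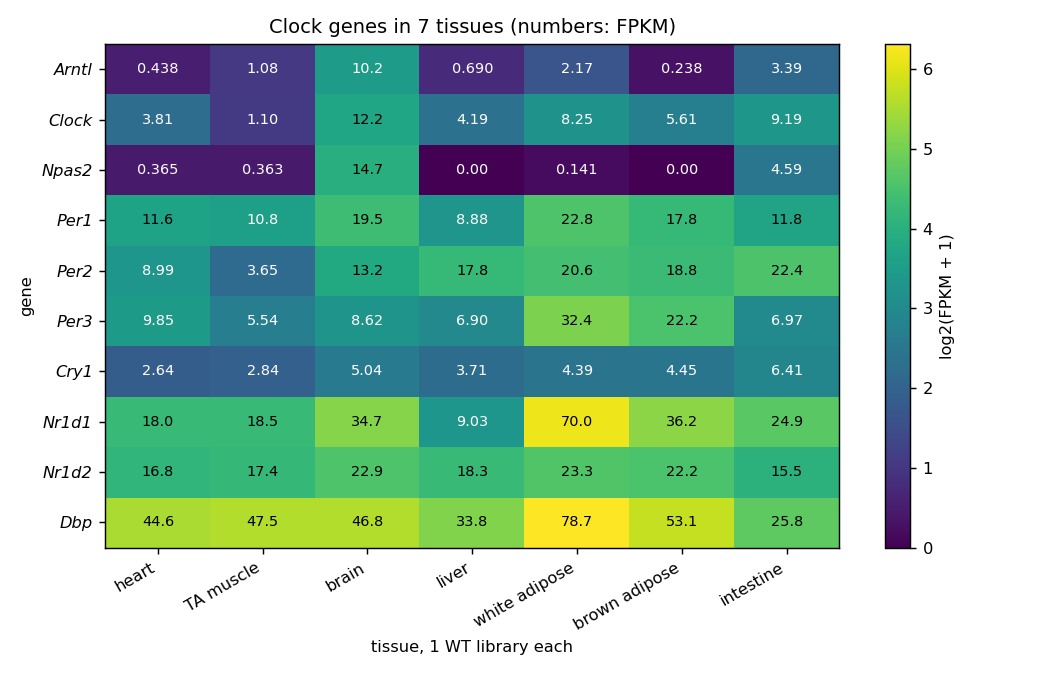
FPKM of the 10 clock genes (rows) in 7 WT tissues (columns, 1 library each), printed in each cell and coloured by log2(FPKM + 1). *Arntl*, *Clock* and *Npas2* peak in brain, and *Dbp*, *Nr1d1*, *Per1*, *Per3* and *Nr1d2* in white adipose.

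The spread within groups of the cold-exposed libraries served only as a scale for these orders. For *Nr1d2* all 6 steps between neighbouring tissues were smaller than 1 SD of that spread (0.30 on the log2 scale), for *Per1* and *Dbp* 5 of 6 were, and for *Nr1d1* and *Cry1* 4 of 6. The step from the highest tissue to the next was larger than 1 SD for *Arntl* (1.35 against 0.28), *Npas2* (1.49 against 0.21), *Clock* (0.37 against 0.20), *Per3* (0.53 against 0.18), *Nr1d1* (0.93 against 0.59), *Dbp* (0.56 against 0.49) and *Cry1* (0.29 against 0.22). It was smaller for *Per1*, *Per2* and *Nr1d2*. The SD of *Npas2* came from BAT alone and rests on 1 library, at an FPKM of 0.430, so it is a poor scale. Because FPKM sums differ among tissues, rescaling to TPM made brain the highest for *Cry1* and *Nr1d2* as well, 5 genes in all, and white adipose the highest for *Per2*.

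Another 27 genes of the pathway were counted from a list by role. In iWAT 25 were tested, of which 6 were higher and 19 lower in MCK-Musclin, with a median log2 difference of -0.16 against 0.06 over all genes. None had an adjusted p under 0.05 in limma, and at an unadjusted p under 0.05 there were 1 higher and 6 lower, or 4% and 24% of them against 13.1% and 3.44% of all genes. With values centred on adipocyte markers there were 2 higher and 1 lower, *Bhlhe40*, and the other 5 lost the call. Over all 12197 genes that centring took the calls from 1592 higher and 420 lower to 2548 and 47. *Rora*, which encodes a ROR receptor that activates *Arntl*, was below WT in every library. *Rora* had an FPKM of 7.73, 8.99 and 7.97 in WT and of 5.97, 5.23 and 5.67 in MCK-Musclin, a log2 difference of -0.48 (SE 0.11, limma, Benjamini-Hochberg adjusted p = 0.148). *Rora* and *Arntl* thus stood on opposite sides of WT. *Nfil3*, which encodes the D-box repressor E4BP4, had a log2 difference of -0.75 with overlapping groups, and *Rorb* was under the filter.

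*Hlf*, a relative of *Dbp*, was also below WT in every library of iWAT, at 3.32, 6.55 and 5.15 in WT and 2.75, 3.27 and 2.71 in MCK-Musclin (log2 difference -0.59, adjusted p = 0.228 in limma), while *Tef*, another relative, had a difference of -0.24. The E-box repressors *Bhlhe40* and *Bhlhe41* had log2 differences of -1.05 and -0.65, with wide spread and overlapping groups. *Bhlhe40* was at 29.9, 13.9 and 43.8 in WT and 9.64, 11.6 and 16.5 in MCK-Musclin. Among rhythmic outputs *Usp2*, a ubiquitin protease, was below WT in every library (10.7, 10.8 and 17.4 against 6.68, 6.58 and 8.90, log2 difference -0.71, adjusted p = 0.180 in limma), and *Nampt*, the enzyme that limits NAD synthesis, had a difference of -0.29. In the 7 tissues *Usp2* was highest in TA muscle, at 54.0, and lowest in white adipose, at 3.69, and the part of the muscle markers in its difference was not tested. None of the 5 kinases and ubiquitin ligases tested had an unadjusted p under 0.05 in iWAT, with differences from -0.15 to 0.05. At the study's cutoff *Hlf*, *Bhlhe40*, *Bhlhe41* and *Usp2* were lower and *Cirbp* higher, against 0.902% of all genes lower and 5.04% higher. Under centring *Bhlhe40* (lower) and *Cirbp* (higher) met it, against 44 of all genes lower and 1856 higher. Without WT library 3 none of the 25 genes met it on the lower or the higher side, against 107 of all genes lower and 545 higher. Exons of *Rora*, *Usp2*, *Bhlhe40* and *Bhlhe41* overlap those of genes on the other strand.

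In BAT 25 of the 27 were tested, 8 higher and 17 lower, with a median of -0.14 against -0.01 over all genes, none past the adjusted threshold in limma, and 1 higher and 3 lower at an unadjusted p under 0.05, against 2.18% and 2.71% of all genes. *Rora* did not stand apart there, with a difference of -0.14. Those below were *Cirbp*, *Rbm3* and *Sgk1*, and the one above was *Btrc*, which encodes a subunit of a ubiquitin ligase. With values centred on adipocyte markers all 3 of the lower calls were lost, and without MCK-Musclin library 1 all 4 were. Over all 10893 genes centring took the calls from 238 higher and 295 lower to 493 and 42. Without MCK-Musclin library 1 all genes gave 184 higher and 269 lower. *Rbm3*, an RNA-binding protein induced by cold, was at 33.7, 28.2 and 24.2 in WT and at 21.5, 21.2 and 23.1 in MCK-Musclin, every MCK-Musclin library being lower (log2 difference -0.36, adjusted p = 0.968 in limma). Its difference in iWAT was 0.24, with groups that overlapped.

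*Cirbp*, the other cold-inducible RNA-binding protein and one known to influence *Clock* transcripts, had opposite differences in the depots. The iWAT libraries had FPKM of 14.9, 13.9 and 8.41 for WT and of 19.5, 22.3 and 16.6 for MCK-Musclin, higher in every MCK-Musclin library (log2 difference 0.64, SE 0.21, adjusted p = 0.216 in limma). Without WT library 3 that difference was 0.40. In BAT it was 3.05, 2.78 and 3.99 in WT and 2.01, 2.59 and 2.05 in MCK-Musclin, lower in every one (log2 difference -0.41, SE 0.15, adjusted p = 0.968 in limma). The sign of these differences was thus the reverse of that of *Clock* in each tissue. The difference between depots was 1.04 (SE 0.27, 95% interval 0.45 to 1.64, limma, Benjamini-Hochberg adjusted p = 0.402). Being apart upwards in iWAT and downwards in BAT was found for 0.707% of the 9757 genes. *Rbm3* (0.59), *Usp2* (-0.62) and *Btrc* (-0.34) also had an unadjusted p under 0.05 in this test, so that 2 genes lay above 0 and 2 below, against 7.04% and 3.02% of all genes. The calls of *Usp2* and *Btrc* were lost under centring. Over all genes it took the calls from 687 above and 295 below 0 to 350 and 104. None of the 25 genes had an adjusted p under 0.05.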

How the data were processed

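The authors selected poly(A) RNA, used fastp and bowtie2 to filter reads and HISAT2 2.1.0 to align these to mm10 (GRCm38), ignoring strand, and deposited FPKM per gene and library. Their methods name StringTie for FPKM and the submitters' processing notes name Cuffdiff, so which tool made the values is unsettled. The iWAT table lists 13756 genes by a filter not given in the sources used here, and its 6 columns of the authors' own comparison (fold changes, p-values, group means) were not used. Each of 287 repeated lines in the other tables was used once.

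Genotypes were compared on log2(FPKM + 1) for genes averaging an FPKM of 1 or more, with limma 3.58.1 (lmFit, eBayes with trend) in R 4.3.3. Other values came from Python 3.11.15 (scipy 1.17.1, pandas 2.3.3, numpy 2.4.6), and figures from matplotlib 3.10.9. The limma step was tested on simulated data. The clock genes, the pathway list, the marker lists and the motifs were chosen with earlier results of these data known. A gene of the pathway list is not reported here. Named genes are those lists, with the 5 genes at either end of the correlation with *Arntl* and with *Dbp*. Positions and exon overlaps are from GENCODE for GRCm38. Read counts were not analysed here and no count test was run. The labels call the libraries of a group biological replicates, and per the study's methods they came from independent animals. Between genotypes of iWAT, deviations correlated at 0.06 to 0.23 for libraries of the same number and at -0.18 to 0.07 for the others. In BAT these values were -0.10 to 0.01 and -0.08 to 0.08. Whether the library numbers pair the genotypes was therefore not settled.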

Additional observations from a re-analysis of the deposited data

Results flagged for a closer look

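*Cirbp* stood above WT in all 3 MCK-Musclin libraries of iWAT and below WT in all 3 of BAT, a difference between the tissues of 1.04 on the log2 scale. The limma test of that difference gave a Benjamini-Hochberg adjusted p of 0.402 over 9757 genes, so it did not pass, and 0.707% of those genes showed the same pattern. Leaving out each of the 12 libraries in turn gave 0.81 to 1.19.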

How the results depend on the processing

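No clock gene had an adjusted p under 0.05 under any alternative tried. The number of clock genes at the study's cutoff in iWAT, 1, was 0 with a mean FPKM of at least 5, which removes *Arntl*, and 0 with median-ratio scaling, and it was 0 to 2 when each library was left out. Over all genes the calls were 433 higher and 71 lower with that filter and 426 and 187 with that scaling. With 1 library left out they were 527 to 844 higher and 92 to 213 lower. In BAT the number of clock genes was 0, became 1 (*Clock*) after rescaling to TPM or centring on adipocyte markers, and was 0 to 1 when each library was left out. All genes gave 239 higher and 189 lower in TPM and 493 and 42 with centring. With 1 library left out they gave 167 to 280 higher and 240 to 301 lower. The number for the difference between tissues, at an unadjusted p under 0.05 in limma, stayed at 1 throughout, against 454 to 1093 of all genes. In TPM 5 clock genes, not 3, were highest in brain. Small differences changed sign. In iWAT *Per3* was -0.041 in TPM and -0.065 with median-ratio scaling, and with centring *Cry1* was 0.16 and *Dbp* 0.031. In BAT *Per2* was 0.00072 and 0.00094 with pseudocounts of 0.1 and 0.01, 0.025 in TPM, 0.0033 with median-ratio scaling and 0.16 with centring, which also gave *Per3* 0.027, *Nr1d1* 0.14 and *Dbp* 0.069. For the difference between tissues *Nr1d2* was 0.0044 with centring. With 1 library left out at a time, the ranges in iWAT were -0.10 to 0.072 for *Per3*, -0.12 to 0.044 for *Cry1*, -0.21 to 0.67 for *Nr1d1* and -0.44 to 0.21 for *Dbp*. In BAT they were -0.49 to 0.12 for *Per1*, -0.16 to 0.13 for *Per2*, -0.12 to 0.24 for *Cry1*, -0.19 to 0.28 for *Nr1d1*, -0.32 to 0.051 for *Nr1d2* and -0.30 to 0.27 for *Dbp*. For the difference between tissues they were -0.36 to 0.25 for *Per1*, -0.28 to 0.080 for *Cry1*, -0.19 to 0.70 for *Nr1d1*, -0.28 to 0.13 for *Nr1d2* and -0.44 to 0.31 for *Dbp*. The cause of these changes was not tested, other than the filter that removes *Arntl*. With the replicate number as a block the counts of clock genes were 1 in iWAT, 0 in BAT and 1 for the difference between tissues, and *Arntl* had a limma adjusted p of 0.227. Over all genes that block gave 620 higher and 154 lower in iWAT, 214 and 246 in BAT, and 978 for the difference between tissues. The numbers are shared only as numbers, and not every library correlated best with its own number. Having 3 libraries a group limits what could be seen of small differences, the read depth of iWAT is unknown, and the difference of a low gene such as *Arntl* depends on the pseudocount (0.76 on the log2 scale with 0.1).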
